A study of Mus musculus with 2 samples.

Results

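Endothelial cells hold each other by adherens and tight junctions and carry the receptors on which leukocytes roll, arrest and cross. A set of 10 mouse genes of these junctions and receptors was chosen by name (Icam1, Icam2, Vcam1, Sele, Selp, Pecam1, Cdh5, Esam, Cldn5 and Jam2), and 9 of the 10 were followed here among the 15526 genes of the table; Sele, which encodes E-selectin, was not analysed here. The cells came from the lungs of p16-FDR mice on C57BL/6, aged 20 to 22 months, and were sorted for mCherry. The p16-FDR allele carries a FLP recombinase and a diphtheria toxin receptor fused to mCherry, so every cell compared below is mCherry-positive from a mouse with this allele, and cells sorted as negative, young mice and mice without the allele were not analysed here. There were 1344 cells in 2 droplet libraries of 1145 and 199 cells, and cell names could not be tied to the 2 samples of the labels, so the table was treated as 1 sample.

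In the leukocyte adhesion cascade, selectins slow leukocytes in the flow, integrins on the leukocyte then bind the immunoglobulin-type receptors of the Icam and Vcam families, and the cell leaves the vessel through or beside the endothelial junctions. Cdh5 encodes VE-cadherin, the cadherin of endothelial adherens junctions, Cldn5 the main claudin of endothelial tight junctions, Esam and Jam2 junctional immunoglobulin-type receptors, and Pecam1 an adhesion receptor of endothelial contacts that leukocytes and platelets also carry. Icam2 is known as a constitutive endothelial ligand of leukocyte integrins, while Icam1, Vcam1 and Selp are known for their induction by inflammatory cytokines, Selp also for release from storage granules. In the lung, capillary endothelium is divided into Car4-high cells (aerocytes) and general capillary cells that express Gpihbp1, and Vwf marks the endothelium of larger vessels.

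The 10 genes and the pathway lists used below were kept out of the genes used for clustering. Some pathway genes, among them Emcn, Plvap, Lrg1, Ackr1 and Bst1, were also in the marker lists that named the clusters. Endothelial-like cells made up 601 of 1344 cells (44.7%), with a summed rate of 192 UMIs per 10000 UMIs for 13 endothelial markers such as Kdr and Egfl7, none of them at 0. The other 743 cells fell into 10 named classes and 1 unnamed cluster led by Mmp12, Ccl17 and Ccl22 (cluster 8). The endothelial-like share differed between the libraries, at 39.1% (95% interval 36.3 to 42.0) in library 1 and 76.9% (70.4 to 82.6) in library 2, and the median depth was 5631 UMIs per cell in library 1 and 6716 in library 2, with no barcode in common (0 shared). A level below is the UMIs of a gene per 10000 UMIs of the cells named, with an exact Poisson interval, and a share of cells with a UMI carries an exact binomial (Clopper-Pearson) interval, both at 95% and both covering counting error only. Since there is 1 table, no comparison between groups of cells has a test, and a gene is called higher or lower where the rates are at least 2-fold apart.

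Promoters of 3 genes are shown because these genes had the 3 patterns described below: Cldn5 was far higher in endothelial-like cells than elsewhere, Icam1 was spread over every class, and Selp was found mostly in 1 macrophage-like class. The windows run from 250 bases before to 50 bases after the RefSeq start of the gene in GRCm38.p6, on the plus strand, at chr16:18776597-18776896 (Cldn5), chr9:21015690-21015989 (Icam1) and chr1:164115014-164115313 (Selp). RefSeq windows matched 4 of the 10 genes. Capitals mark matches, on either strand, to the TATA-type letters TATAAA, to AGGAAG (letters found in ETS-type sites) and to GGAANTTCC (a symmetric variant of the NF-kB site, chosen after the Icam1 sequence was seen); the NF-kB consensus was searched by name as well.
Cldn5: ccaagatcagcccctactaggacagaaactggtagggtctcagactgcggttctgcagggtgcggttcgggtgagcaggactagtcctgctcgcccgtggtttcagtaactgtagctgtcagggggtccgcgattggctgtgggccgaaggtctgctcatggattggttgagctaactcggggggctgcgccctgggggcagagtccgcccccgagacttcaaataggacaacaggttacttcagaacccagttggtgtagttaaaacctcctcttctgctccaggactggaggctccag
Icam1: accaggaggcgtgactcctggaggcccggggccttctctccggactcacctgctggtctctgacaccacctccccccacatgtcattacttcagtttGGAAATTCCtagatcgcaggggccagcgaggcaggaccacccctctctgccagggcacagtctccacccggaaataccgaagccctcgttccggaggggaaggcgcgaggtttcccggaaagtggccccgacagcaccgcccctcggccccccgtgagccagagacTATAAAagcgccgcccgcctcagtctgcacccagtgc
Selp: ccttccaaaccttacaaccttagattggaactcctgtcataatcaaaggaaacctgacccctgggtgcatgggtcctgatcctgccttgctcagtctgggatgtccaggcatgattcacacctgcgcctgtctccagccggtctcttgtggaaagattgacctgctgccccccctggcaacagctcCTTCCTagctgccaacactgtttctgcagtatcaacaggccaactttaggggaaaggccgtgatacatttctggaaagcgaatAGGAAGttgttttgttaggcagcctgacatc
Icam1 held GGAANTTCC, as GGAAATTCC, with its first base at -153 from the RefSeq start, which 0.928% of 32851 mouse promoter windows also hold on either strand, and TATAAA at 14 (13.6% of windows). Selp held AGGAAG on the plus strand at 20 and on the minus strand at -64 (35.4% of windows hold it). Cldn5 held none of the 3 sets of letters in this window, and the NF-kB consensus (8.46% of windows) was in none of the 3 windows. GENCODE starts Icam1 at chr9:21015985, inside its window and downstream of the Icam1 matches, so positions relative to the start depend on the annotation. The matches are letters in a window and not measured sites.

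Of the 9 genes, 7 were at least 2-fold higher in endothelial-like cells than in all other cells and 2, Vcam1 and Selp, were at least 2-fold lower. Selp had a UMI in 3 endothelial-like cells, below the 1% of cells asked of either group, so it entered only through the other cells. Over the same comparison, 25.2% of 13458 genes were called higher and 25.6% lower (50.7% together), and the median gene had a log2 ratio of 0.36. The log2 ratios of the 9 genes had a median of 4.66.

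**Figure D1:**
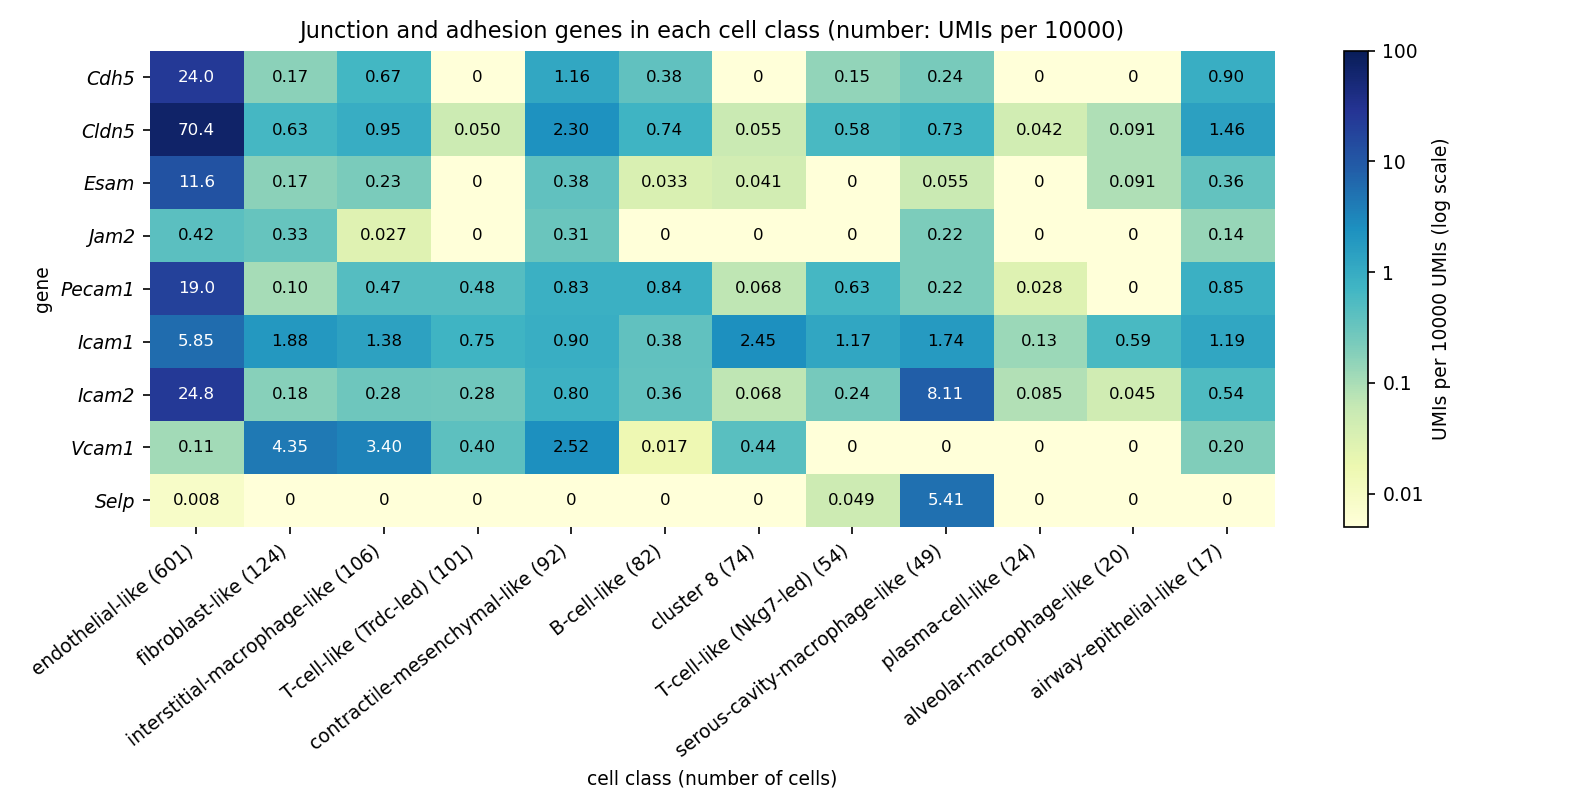
Levels of the 9 genes (rows) in 12 cell classes (columns, endothelial-like cells at the left, number of cells in brackets), as UMIs per 10000 UMIs, with colour on a log scale. Cdh5, Cldn5, Esam and Pecam1 are dark in the endothelial-like column alone, Icam2 is dark there and in serous-cavity-macrophage-like cells, Vcam1 is at 4.35 in fibroblast-like cells and Selp at 5.41 in serous-cavity-macrophage-like cells.

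The junction genes set the endothelial-like cells apart most widely. Cdh5 (chr8:104101625-104144511, GRCm38) had 24.0 UMIs per 10000 (23.4 to 24.5) in endothelial-like cells, with a UMI in 601 of 601 cells, and 0.349 (0.304 to 0.399) in the other cells, with a UMI in 28 of 743, a 68.6-fold difference. Cldn5 had 70.4 (69.6 to 71.3) in endothelial-like cells and 0.721 (0.655 to 0.791) in the other cells, a 97.7-fold difference. Esam had 11.6 (11.2 to 11.9) in endothelial-like cells and 0.132 (0.105 to 0.164) in the other cells, an 87.3-fold difference. These intervals lie far apart, and among the other classes no level of the 3 genes passed 2.30, the level of Cldn5 in contractile-mesenchymal-like cells. Cldn5 had about the same ratio in both libraries, at 94.9-fold in library 1 and 92.9-fold in library 2. Cdh5 was 67.2-fold higher in library 1 and 141-fold (71.5 to 327) in library 2, and Esam was 77.7-fold higher in library 1 and 224-fold (76.5 to 1087) in library 2, where the other cells held 8 Cdh5 and 3 Esam UMIs.

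Pecam1 had 19.0 UMIs per 10000 (18.6 to 19.5) in endothelial-like cells, with a UMI in 600 of 601 cells, and 0.381 (0.334 to 0.433) in the other cells, a 49.9-fold difference. The ratio was 48.8-fold in library 1 and 212-fold (82.8 to 781) in library 2, where the other cells held 4 Pecam1 UMIs. Outside endothelial-like cells its share of cells with a UMI was highest in B-cell-like cells, at 28 of 82 cells (34.1%, 24.0 to 45.4), against 5 of 82 cells for Cdh5 in the same class. That share was 16.2% in B-cell-like cells once each cell was thinned to 2500 UMIs. Airway-epithelial-like, B-cell-like and contractile-mesenchymal-like cells followed endothelial-like cells in the order of Pecam1 levels, at 0.852, 0.844 and 0.831, with intervals that overlap.

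The 5 genes Cdh5, Cldn5, Esam, Pecam1 and Icam2 were found together in single cells. In 585 of 601 endothelial-like cells (97.3%) all 5 had a UMI, and no endothelial-like cell had fewer than 3 of them. Within single endothelial-like cells, Cdh5 ran between 2.41 and 77.9 UMIs per 10000 around a median of 24.1, and Cldn5 between 0 and 217 around a median of 68.9.

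Most UMIs of the junction genes outside endothelial-like cells lay in few cells. Of the 743 other cells, 44 carried markers of several lineages, and these held 15.1% of all UMIs of the other cells. A cell was counted if it had at least 3 markers at 2 or more UMIs in each of 2 or more marker lists. The lists were endothelial, T cell, B cell, plasma cell, interstitial macrophage, fibroblast and airway epithelial, so B-cell and plasma-cell markers counted as separate lineages. Endothelial markers were part of this rule, which favours a high share of junction-gene UMIs in the 44 cells. The 44 cells held 189 of the 216 Cdh5 UMIs of the other cells (87.5%), 340 of 446 Cldn5 UMIs (76.2%), 61 of 82 Esam UMIs (74.4%) and 153 of 236 Pecam1 UMIs (64.8%). For Icam1, Vcam1, Selp and Jam2 the share in these 44 cells was 10.6%, 6.43%, 4.38% and 12.7%, all below their share of all UMIs. Icam2 lay between, with 122 of 605 UMIs (20.2%) in the 44 cells. In the remaining 699 cells Cdh5 stood at 0.0514 UMIs per 10000 (0.0339 to 0.0748), with a UMI in 12 cells, and Cldn5 at 0.202 (0.165 to 0.244). Whether these cells are doublets was not tested.

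**Figure D2:**
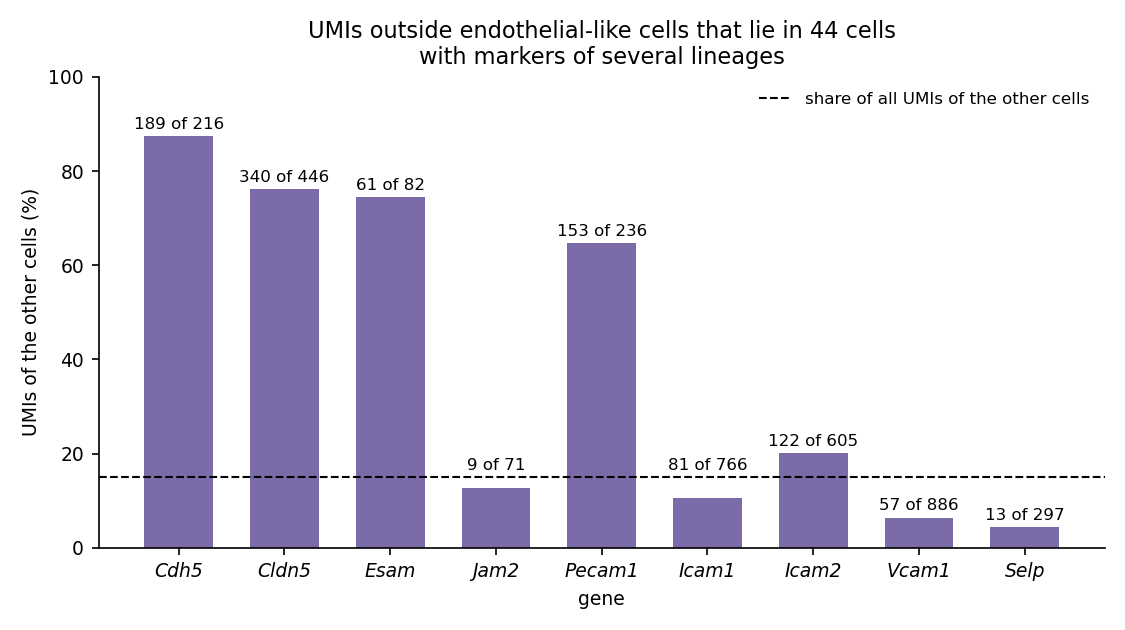
Share of each gene's UMIs outside endothelial-like cells (y axis, percent) that lay in the 44 cells with markers of several lineages, with the UMIs written above each bar; the dashed line is the share these cells hold of all UMIs of the other cells (15.1%). The bars of Cdh5, Cldn5, Esam and Pecam1 stand between 64.8% and 87.5%, Icam2 is at 20.2%, above the dashed line, and those of Jam2, Icam1, Vcam1 and Selp lie below the dashed line. Endothelial markers were part of the rule that picked the 44 cells.

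Jam2, the junctional receptor whose partners include Jam3 and leukocyte integrins, differed from the other junction genes. It had 0.417 UMIs per 10000 (0.353 to 0.490) in endothelial-like cells, with a UMI in 88 of 601 cells (14.6%, 11.9 to 17.7), and 0.115 (0.0896 to 0.145) in the other cells, a 3.64-fold difference. Fibroblast-like cells (0.332) and contractile-mesenchymal-like cells (0.309) followed in the order of levels, and the intervals of these 3 neighbouring classes overlap. The difference was not shared by the libraries. Jam2 was at 0.549 in endothelial-like cells and 0.113 in the other cells of library 1, and at 0.104 (0.0521 to 0.187) in endothelial-like cells and 0.139 (0.0559 to 0.287) in the other cells of library 2, which rests on 11 and 7 UMIs.

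Icam1, the ligand of the leukocyte integrins LFA-1 and Mac-1, was spread widely, with a UMI in at least 15.8% of the cells of each of the 12 classes. It had 5.85 UMIs per 10000 (5.60 to 6.11) in endothelial-like cells, with a UMI in 533 of 601 cells (88.7%, 85.9 to 91.1), and 1.24 (1.15 to 1.33) in the other cells, with a UMI in 281 of 743 (37.8%, 34.3 to 41.4), a 4.73-fold difference (4.35 to 5.14). The next levels were 2.45 in cluster 8, 1.88 in fibroblast-like, 1.74 in serous-cavity-macrophage-like and 1.38 in interstitial-macrophage-like cells, each overlapping the next in its interval. Down this order neighbouring classes overlap in their intervals, except endothelial-like cells with cluster 8 and B-cell-like with plasma-cell-like cells. The lowest levels were 0.380 in B-cell-like and 0.127 (0.0581 to 0.241) in plasma-cell-like cells, whose median depth was 30153.5 UMIs per cell. Thinned to 2500 UMIs per cell, the shares with an Icam1 UMI were 70.5% of endothelial-like cells, 20.8% of the other cells and 3.93% of plasma-cell-like cells. In both libraries the difference was about equal, at 4.69-fold in library 1 and 4.65-fold in library 2.

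Icam2, the other integrin ligand of resting endothelium, had 24.8 UMIs per 10000 (24.3 to 25.3) in endothelial-like cells, with a UMI in 598 of 601 cells, and 0.977 (0.901 to 1.06) in the other cells, a 25.3-fold difference. It was 22.4-fold higher in library 1 and 69.2-fold (45.2 to 112) in library 2, where the other cells held 21 Icam2 UMIs. The serous-cavity-macrophage-like class (49 cells, 48 of them in library 1, led by Prg4, Alox15, Saa3 and Serpinb2) came next, at 8.11 (7.37 to 8.90), with a UMI in 49 of 49 cells. In single cells of this class Icam2 ran between 0.840 and 21.9 UMIs per 10000 around a median of 7.57. The class held 444 of the 605 Icam2 UMIs of the other cells, and all remaining classes were at or below 0.798. In the same 49 cells Cdh5 was at 0.237 and Esam at 0.0548, and the 13 endothelial markers summed to 2.43, against 192 in endothelial-like cells.

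Selp, the P-selectin gene, followed the same macrophage-like class. It had 5.41 UMIs per 10000 (4.81 to 6.06) in serous-cavity-macrophage-like cells, with a UMI in 46 of 49 cells (93.9%, 83.1 to 98.7), and 70.4% of these cells kept a UMI at 2500 UMIs per cell. Of the 300 Selp UMIs of the table, 296 were in this class, 1 was in a T-cell-like (Nkg7-led) cell and 3 were in 3 endothelial-like cells (0.499% of 601, 0.103 to 1.45). Endothelial-like cells thus stood at 0.00845 (0.00174 to 0.0247) and all other cells at 0.480 (0.427 to 0.538), a 56.8-fold lower level in endothelial-like cells with an interval of 19.2 to 277. In library 1 it was 42.4-fold lower (14.4 to 207, on 3 UMIs in endothelial-like cells), and library 2 held 0 Selp UMIs in endothelial-like and 7 in the other cells. Platelets are known to carry Selp too; of 5 platelet markers 3 were at 0 in the serous-cavity-macrophage-like class and all 5 summed to 0.0548 there, and the part of platelet RNA in the Selp level was not tested. Selp was among the genes that led this cluster, so its level there is a description of the cluster. Of the 46 cells with Selp, 21 also had Icam1 and 0 had Vcam1.

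Vcam1, the ligand of the integrin pair of Itga4 and Itgb1, was highest in fibroblast-like, interstitial-macrophage-like and contractile-mesenchymal-like cells. It had 4.35 UMIs per 10000 (3.94 to 4.78) in fibroblast-like cells, with a UMI in 90 of 124 cells (72.6%, 63.8 to 80.2). Interstitial-macrophage-like cells had 3.40 UMIs per 10000, with a UMI in 55 of 106 cells, and contractile-mesenchymal-like cells had 2.52 (2.14 to 2.95), with a UMI in 53 of 92 cells, and the intervals of these 3 classes do not overlap. All remaining classes were at or below 0.436, and 1 of 82 B-cell-like cells had a Vcam1 UMI. Serous-cavity-macrophage-like and alveolar-macrophage-like cells held 0 Vcam1 UMIs. Endothelial-like cells stood at 0.113 (0.0805 to 0.153), with a UMI in 12 of 601 cells (2.00%, 1.04 to 3.46), and all other cells at 1.43 (1.34 to 1.53), which is 12.7-fold lower in endothelial-like cells. It was 9.56-fold lower in library 1 and 60.8-fold lower (16.1 to 514) in library 2, where endothelial-like cells held 2 Vcam1 UMIs. Median depth was 5242 UMIs in endothelial-like and 7462 in fibroblast-like cells, and at 2500 UMIs per cell the shares were 1.07% of endothelial-like and 52.1% of fibroblast-like cells. Vcam1 and Icam1 were found together in 59 of the 124 fibroblast-like cells.

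**Figure D3:**
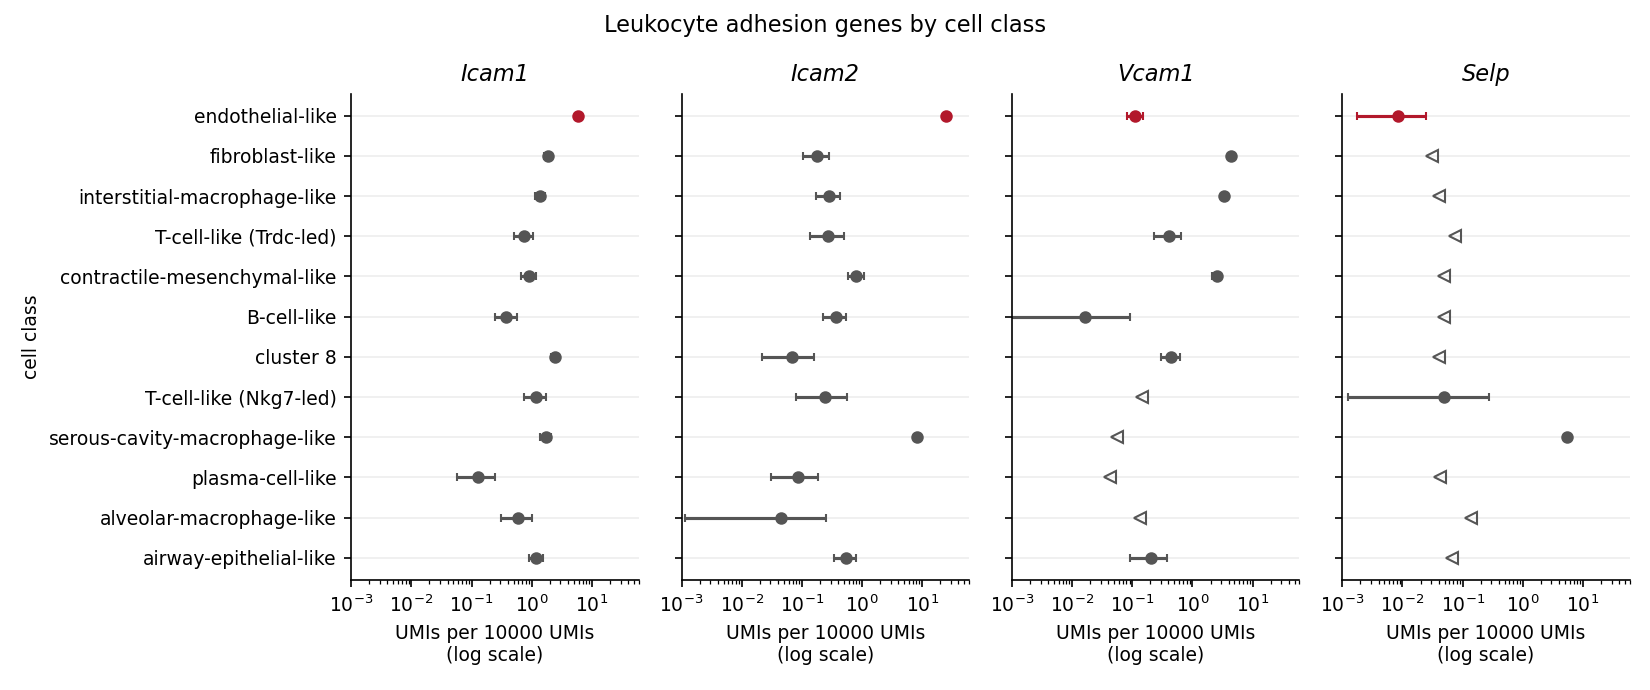
Levels of Icam1, Icam2, Vcam1 and Selp (4 panels, UMIs per 10000 UMIs on a log axis) in 12 cell classes, endothelial-like cells in red at the top; lines are exact 95% Poisson intervals, and open triangles mark classes with 0 UMIs at the limit that 3 UMIs would give. Icam1 is at or above 0.127 in every class, Icam2 is high in 2 classes, Vcam1 in 3, and Selp in serous-cavity-macrophage-like cells, where it is at 5.41.

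The endothelial-like cells were divided further by clusters made without the 10 genes. The Vwf-high group (80 cells, median depth 4420.5 UMIs) had Vwf at 8.17, Gpihbp1 at 16.6 and Car4 at 5.18 UMIs per 10000. The Gpihbp1-capillary-like group (63 cells, 9044 UMIs) had Vwf at 3.22, Gpihbp1 at 11.5 and Car4 at 21.6. The Car4-high group (454 cells, 5108 UMIs) had Vwf at 0.101, Gpihbp1 at 1.62 and Car4 at 35.1, and 4 cells had no group. The marker list with the best match to the Vwf-high group was that of general capillary cells, and Gpihbp1 was higher in the Vwf-high than in the Gpihbp1-capillary-like group, and at a lower clustering resolution the 2 merged into 145 cells, so they are neighbouring groups and not cleanly separated types. Car4-high cells of the libraries also fell into different clusters: 126 of 127 cells of 1 such cluster were from library 2.

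Over both libraries, 6 of the 9 genes had their lowest level in the Vwf-high group. Another 2 had their highest level there, with intervals apart from both other groups. The share of all genes with such an order was not computed. In library 2 alone, Icam1 (4.34), Cdh5 (20.2) and Esam (8.68) were not lowest in Vwf-high cells. Gpihbp1-capillary-like cells of library 2 had them at 3.59, 20.1 and 8.59. Between Vwf-high and Car4-high cells 8 genes passed the filter. It asked for a UMI in at least 1% of the cells of either group and more than 3 UMIs in at least 1 group. Selp, with 3 UMIs in Vwf-high and 0 in Car4-high cells, did not pass. Vcam1 and Jam2 were called higher in Vwf-high cells and Icam1, Icam2 and Cldn5 lower. Vcam1 had 0 UMIs in Car4-high cells, so it passed only through Vwf-high cells and could only be called higher. Over all 10760 genes of this comparison 14.2% were called higher and 10.2% lower (24.5% together).

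Jam2 had 1.67 UMIs per 10000 (1.35 to 2.05) in Vwf-high cells, with a UMI in 42 of 80 cells, 0.583 (0.404 to 0.815) in Gpihbp1-capillary-like cells, with a UMI in 26 of 63, and 0.0923 (0.0579 to 0.140) in Car4-high cells, with a UMI in 20 of 454. The Vwf-high level was 18.1-fold that of Car4-high cells, and the 3 intervals do not overlap. In library 1 the levels were 1.72 in Vwf-high and 0.105 in Car4-high cells, and in library 2 they were 0.868 in Vwf-high and 0.0700 in Car4-high cells, on 3 and 6 UMIs. At 2500 UMIs per cell 29.5% of Vwf-high, 15.5% of Gpihbp1-capillary-like and 2.17% of Car4-high cells had a Jam2 UMI.

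Vcam1 had 0.708 UMIs per 10000 (0.504 to 0.968) in Vwf-high cells, 0.0172 in Gpihbp1-capillary-like cells (1 UMI) and 0 in Car4-high cells, where a count of 0 allows up to 0.0126. The share of cells with a UMI was 11 of 80 Vwf-high cells (13.8%, 7.07 to 23.3) and 0 of 454 Car4-high cells. The level in Vwf-high cells was at least 56.2-fold higher than in Car4-high cells, taking 3 UMIs over the Car4-high group as the floor and without the counting error of the Vwf-high level. Of the 39 Vcam1 UMIs of Vwf-high cells 20 were in 1 cell, and without it the level was 0.348, which is at least 27.6-fold higher by the same floor. Of the 39 UMIs, 38 were in library 1, where the level was at least 37.4-fold higher, and 1 was in library 2, which gives no ratio. Of all 12 endothelial-like cells with Vcam1, 10 had a Vwf UMI, 11 a Gpihbp1 UMI, 9 an Icam1 UMI and 4 a Car4 UMI. The cell with 20 Vcam1 UMIs also had 1 Selp, 27 Vwf and 8 Slc6a2 UMIs, and it had 0 UMIs of Ptprc, the leukocyte gene CD45. The 3 endothelial-like cells with Selp were all in the Vwf-high group, at 0.0545 (0.0112 to 0.159).

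Icam1, Icam2 and Cldn5 were lower in Vwf-high than in Car4-high cells. Icam1 had 2.58 UMIs per 10000 (2.17 to 3.04) in Vwf-high, 3.69 (3.21 to 4.22) in Gpihbp1-capillary-like and 7.20 (6.86 to 7.55) in Car4-high cells. Over both libraries the 3 intervals lie apart, with Vwf-high cells lowest. In library 2 alone the Icam1 level of Vwf-high cells was 1.21-fold that of Gpihbp1-capillary-like cells (0.637 to 2.16). At 2500 UMIs per cell the shares with an Icam1 UMI were 36.3% in Vwf-high, 61.1% in Gpihbp1-capillary-like and 78.2% in Car4-high cells. The Vwf-high level was 2.79-fold lower than that of Car4-high cells over both libraries and 3.08-fold lower in library 1. In library 2, where there were 9 Vwf-high cells, it was 1.51-fold lower, with an interval that includes 1 (0.906 to 2.71). Icam2 had 10.2 (9.38 to 11.1) in Vwf-high, 22.1 (20.9 to 23.3) in Gpihbp1-capillary-like and 28.9 (28.2 to 29.6) in Car4-high cells, 2.83-fold lower in Vwf-high than in Car4-high cells. Its 3 intervals lie apart too, and the libraries gave nearly the same ratio. Between Vwf-high and Car4-high cells Icam2 was 2.74-fold lower in library 1 and 2.80-fold lower in library 2. Cldn5 had 39.3 (37.7 to 41.0) in Vwf-high, 61.9 (59.9 to 63.9) in Gpihbp1-capillary-like and 80.1 (79.0 to 81.3) in Car4-high cells, a 2.04-fold lower level in Vwf-high cells, near the threshold, with 1.94-fold in library 2.

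Cdh5, Pecam1 and Esam stayed within 2-fold between all 3 groups. Cdh5 had 19.6 in Vwf-high, 23.8 in Gpihbp1-capillary-like and 25.2 UMIs per 10000 in Car4-high cells. Pecam1 had 16.4 (15.4 to 17.5) in Vwf-high, 18.2 (17.1 to 19.3) in Gpihbp1-capillary-like and 20.0 (19.4 to 20.5) in Car4-high cells. Esam had 8.12 in Vwf-high, 9.78 in Gpihbp1-capillary-like and 12.9 in Car4-high cells. The Vwf-high intervals lie below those of Car4-high cells for each of the 3 genes, and for Pecam1 the Vwf-high and Gpihbp1-capillary-like intervals overlap.

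**Figure D4:**
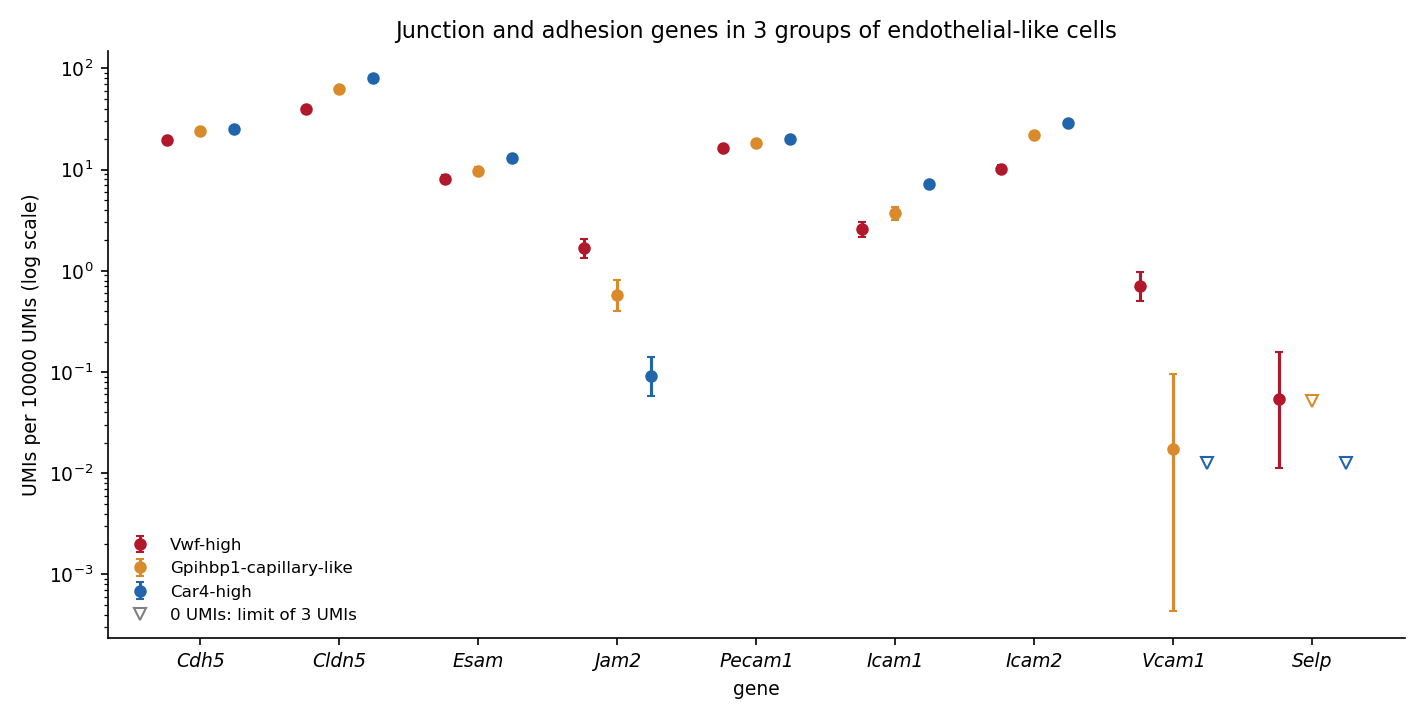
Levels of the 9 genes (UMIs per 10000 UMIs, log axis) in Vwf-high (80 cells), Gpihbp1-capillary-like (63) and Car4-high (454) endothelial-like cells, with exact 95% Poisson intervals; open triangles mark 0 UMIs at the limit that 3 UMIs would give. Jam2 and Vcam1 step down towards Car4-high cells, and Cldn5, Icam1 and Icam2 step up, with Icam2 at 10.2 in Vwf-high and 28.9 in Car4-high cells.

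Gpihbp1-capillary-like cells differed from Car4-high cells by 2-fold in 1 of 7 genes compared, Jam2, which was 6.32-fold higher, where 8.76% of 10571 genes were called higher and 5.14% lower (13.9% together), so 1 of 7 is near that share. In library 1 Jam2 was 7.24-fold higher and in library 2 it was 1.77-fold higher (0.174 to 9.89, on 2 and 6 UMIs), which is not called. Between Vwf-high and Gpihbp1-capillary-like cells 3 of 8 genes were called. Vcam1 was 41.3-fold higher in Vwf-high cells (interval 6.99 to 1672, against a single UMI), Jam2 was 2.86-fold higher and Icam2 was 2.16-fold lower, where 9.78% of 9839 genes were called higher and 7.97% lower (17.7% together). For Vcam1 library 1 held 38 UMIs in Vwf-high and 0 in Gpihbp1-capillary-like cells, at least 10.3-fold higher, and library 2 held 1 in each. For Jam2 the ratio was 2.27-fold in library 1, and library 2 held 3 UMIs in Vwf-high and 2 in Gpihbp1-capillary-like cells. These 3 comparisons share their groups of cells and do not count as separate evidence.

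Car4-high cells were not uniform. A cluster of 95 of them, with a median depth of 3575 UMIs and 92 cells in library 1, had Cdh5 at 35.0 UMIs per 10000 (33.1 to 37.0), Pecam1 at 29.4 (27.7 to 31.3) and Icam1 at 9.60 (8.62 to 10.7). Over the other 4 Car4-high clusters these genes ran between 22.8 and 24.5 (Cdh5), 17.1 and 19.5 (Pecam1) and 6.23 and 8.30 (Icam1), and the Icam1 interval of the 95 cells overlaps that of 1 of them (7.24 to 9.47). In the same 95 cells Cldn5 (65.0), Icam2 (21.6) and Esam (9.88) were below the other 4 clusters, which ran between 79.5 and 86.8 for Cldn5, 29.5 and 31.2 for Icam2 and 12.3 and 14.4 for Esam. The part that depth has in this pattern was not tested.

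The sorted cells carry a reporter of the Cdkn2a locus, so endothelial-like cells with and without a UMI of Cdkn2a, which encodes the cell-cycle inhibitor p16, were compared within the 3 groups. A Cdkn2a UMI was found in 327 endothelial-like cells and not in 274, and its share was 10 of 80 Vwf-high, 40 of 63 Gpihbp1-capillary-like and 275 of 454 Car4-high cells. A cell without a Cdkn2a UMI is not a cell without the transcript at this depth. Of 8 genes compared, 1 was called, Vcam1, with 4 UMIs in cells with and 36 in cells without a Cdkn2a UMI and a log2 ratio within groups of -1.82. The ratio was -0.67 without the 1 cell that holds 20 of these 40 Vcam1 UMIs, so the call rests on that cell. The log2 ratios of the other 7 genes lay between -0.30 (Jam2) and 0.09 (Icam2 and Esam), where 3.59% of 10829 genes were called higher and 3.63% lower (7.22% together).

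Among Vwf-high cells, Icam2 had 14.1 UMIs per 10000 (12.2 to 16.2) in the 10 cells with a Cdkn2a UMI and 8.90 (8.01 to 9.85) in the 70 cells without, 1.59-fold higher with intervals apart. Icam1 had 3.48 (2.56 to 4.61) in Vwf-high cells with and 2.28 (1.84 to 2.79) in those without, 1.53-fold higher with intervals that overlap. The median depth was 13462 UMIs in Vwf-high cells with and 4196.5 in those without a Cdkn2a UMI, and its part in these ratios was not tested. Car4-high cells held most cells of both kinds. Over both libraries Cdh5 had 24.4 (23.6 to 25.2) in the 275 Car4-high cells with and 26.6 (25.5 to 27.8) in the 179 without a Cdkn2a UMI, 1.09-fold lower with intervals apart. In library 1, Cdh5 had 26.0 UMIs per 10000 (24.9 to 27.1) in the 169 cells with a Cdkn2a UMI and 26.9 (25.7 to 28.2) in the 153 cells without. Icam1 had 7.37 (6.79 to 7.98) in cells with and 7.80 (7.16 to 8.48) in cells without a Cdkn2a UMI of library 1, and 6.61 (6.03 to 7.24) in cells with and 6.20 in cells without in library 2. Cldn5 had 79.5 (77.5 to 81.4) in cells with and 78.8 (76.8 to 80.9) in cells without a Cdkn2a UMI of library 1. The intervals of these pairs within 1 library overlap, and median depth was 4670 UMIs in cells with and 4562 in cells without a Cdkn2a UMI of library 1.

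**Figure D5:**
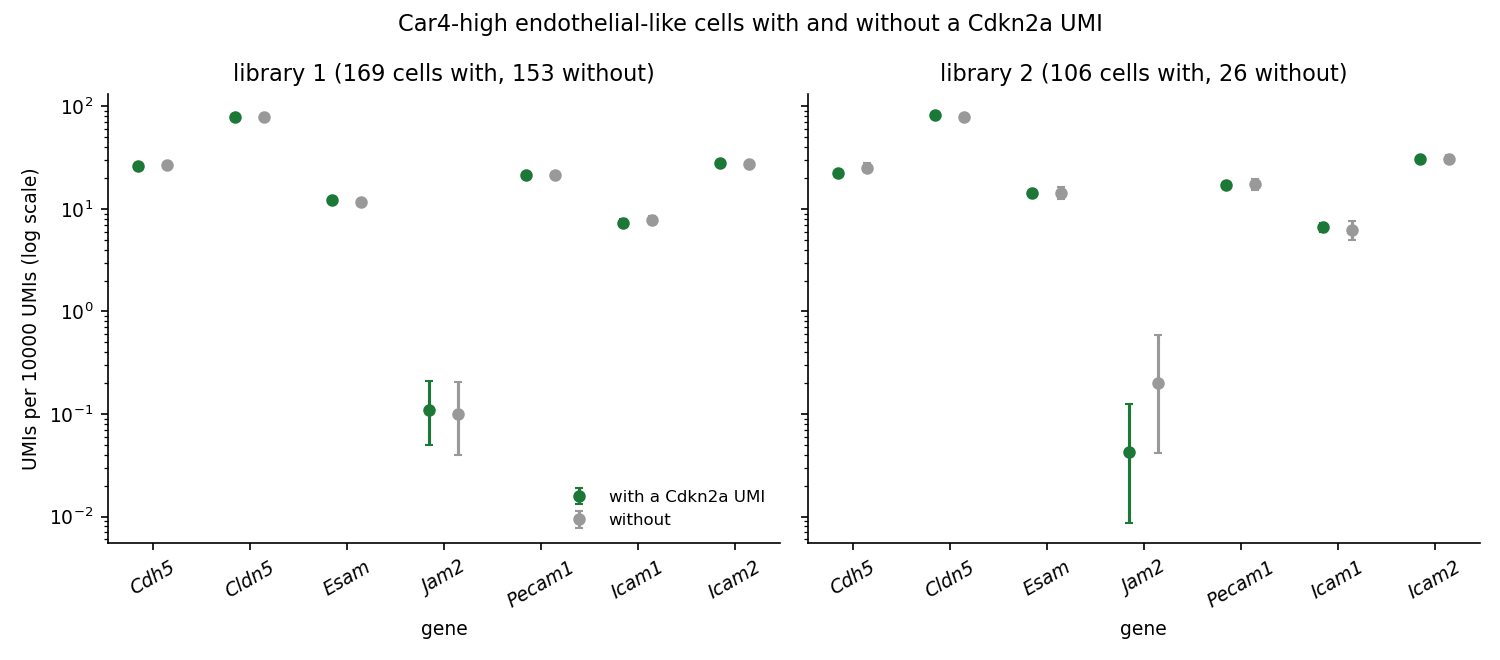
Levels of 7 genes (UMIs per 10000 UMIs, log axis) in Car4-high endothelial-like cells with (green, left of each pair) and without (grey) a Cdkn2a UMI, in library 1 and library 2, with exact 95% Poisson intervals. The paired points lie close together for every gene except Jam2 in library 2, whose intervals are wide and overlap; Cdh5 in library 1 is at 26.0 in cells with and 26.9 in cells without.

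Other genes of the same functions were taken from 4 lists. Of 22 other junction genes compared, 11 were called higher and 6 lower in endothelial-like cells than in the other cells, with a median log2 ratio of 1.01, where 25.2% of all genes were called higher and 25.6% lower, so the share called lower is near that of all genes. The tight-junction gene Ocln had 0.823 UMIs per 10000 in endothelial-like and 0.0145 in the other cells, the nectin gene Nectin3 had 4.13 in endothelial-like and 0.162 in the other cells, and Jup, the plakoglobin gene, had 5.21 in endothelial-like and 0.336 in the other cells. Cldn1, a claudin of epithelia, had 0 in endothelial-like cells and 0.145 in the other cells, so it passed the filter only through the other cells. Between Vwf-high and Car4-high cells 5 of 17 junction genes were called higher and 3 lower, beside 14.2% of all genes called higher and 10.2% lower. Nectin3 was among the lower ones, at 1.20 in Vwf-high and 5.16 in Car4-high cells, and Cdh13, the membrane-anchored cadherin T-cadherin, was at 0.182 in Vwf-high (4 cells) and 0 in Car4-high cells. Cdh13 passed the filter only through Vwf-high cells and could only be called higher, so this count is not independent of the filter.

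Of 15 other endothelial adhesion and transmigration genes, 12 were called higher and 2 lower in endothelial-like cells, with a median log2 ratio of 2.61, beside the same 25.2% and 25.6% of all genes. The sialomucin genes Emcn (3.19 in endothelial-like and 0.0258 UMIs per 10000 in the other cells) and Podxl (8.85 in endothelial-like and 0.166 in the other cells) were among the higher ones. Emcn is also among the endothelial markers that named these cells, so its level there describes the class. Alcam, an immunoglobulin-type receptor, was at 0 in endothelial-like cells and at 0.903 in the other cells, so it passed the filter only through the other cells. Plvap, which forms the diaphragms of endothelial openings, was at 13.1 in Vwf-high, 8.08 in Gpihbp1-capillary-like and 0.323 in Car4-high cells. It is also among the general capillary markers used in naming the groups, so these levels describe them. Between Vwf-high and Car4-high cells 2 of 13 genes of this list were called higher, near the 14.2% of all genes, and 6 lower, beside 10.2% of all genes. The sialomucin gene Cd34 was among the lower ones, at 2.42 in Vwf-high and 7.84 in Car4-high cells.

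Most of the leukocyte partners of these receptors were lower in endothelial-like cells than in the other cells. Of 16 genes compared, 12 were called lower and none (0) higher in endothelial-like cells, with a median log2 ratio of -4.26, beside 25.6% of all genes called lower and 25.2% higher. The other cells include the leukocyte classes. Itga4, Itgb2, Selplg and Itgam had a UMI in 1, 2, 2 and 0 endothelial-like cells, so they passed the filter only through the other cells. The count is therefore not independent of the choice of groups and the filter. Itga4, the integrin chain that binds Vcam1, had 0.00282 UMIs per 10000 in endothelial-like cells (1 cell) and 0.853 in the other cells (251 cells). Itgb2, the chain shared by the integrins that bind Icam1 and Icam2, had 0.00564 in endothelial-like cells and 1.43 in the other cells. Selplg, the P-selectin ligand, had 0.00564 in endothelial-like cells and 1.34 in the other cells. Not every gene of this list was near 0 in endothelial-like cells. Itgb1 was at 7.70 in Vwf-high, 6.19 in Gpihbp1-capillary-like and 5.54 in Car4-high cells. Cd38 was at 1.58 in Vwf-high, 1.46 in Gpihbp1-capillary-like and 1.14 in Car4-high cells.

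Of 17 genes known to be induced by cytokines in endothelium, 2 were called higher and 8 lower in endothelial-like cells than in the other cells, beside 25.2% of all genes called higher and 25.6% lower. Traf1, Tnfaip2 and Bst1 had a UMI in 2, 6 and 6 endothelial-like cells, so they passed the filter only through the other cells. Within the endothelial-like cells, 8 of 16 were called higher in Vwf-high than in Car4-high cells and none (0) lower, with a median log2 ratio of 1.07, beside 14.2% of all genes called higher, 10.2% lower and a median of 0.01. Lrg1, Ackr1 and Bst1 of this list are also in the venous marker list used in naming Vwf-high cells. Tnfaip2 (6 Vwf-high and 0 Car4-high cells) and Ch25h (4 and 0 cells) passed the filter only through Vwf-high cells. The count is therefore not independent of the naming and the filter. The macrophage growth factor gene Csf1 was at 0.854 UMIs per 10000 (0.627 to 1.14) in Vwf-high cells, 0.463 in Gpihbp1-capillary-like cells and 0.0210 (0.00681 to 0.0490) in Car4-high cells. Birc3, an inhibitor of apoptosis and NF-kB target, was at 0.200 in Vwf-high and 0.0336 in Car4-high cells. Against Gpihbp1-capillary-like cells, 7 of 16 were called higher in Vwf-high cells and none (0) lower, beside 9.78% of all genes called higher and 7.97% lower. The overlap with the venous markers used in naming applies here too. Tnfaip2 (6 Vwf-high and 0 Gpihbp1-capillary-like cells) again passed the filter only through Vwf-high cells. Socs3, the cytokine feedback inhibitor, was at 2.74 in Vwf-high and 0.686 in Gpihbp1-capillary-like cells. Icam1, also known as an NF-kB target, was lower in Vwf-high than in Car4-high cells, and NF-kB activity was not tested.

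Genes with the most similar levels were ranked by Pearson correlation of log2 levels over 14 classes and endothelial groups, among genes in at least 5% of cells. Cdh5 was nearest to Podxl (0.996), Cldn5 (0.994) and Kdr (0.988), and Esam to Smad6 (0.992). Pecam1 was nearest to Stmn2 (0.974), Calcrl (0.972) and Tnfsf10 (0.967), and Icam2 to Efnb2 (0.955). Icam1 was nearest to Lemd2 (0.910) and Prkd3 (0.901), and Vcam1 to Nuak1 (0.931) and Akr1b8 (0.897). Selp was nearest to Garnl3 (0.935) and Jam2 to Cyp26b1 (0.949) and Cxcl12 (0.948). Among the 9 genes, Cdh5, Cldn5, Esam and Pecam1 correlated with each other between 0.908 and 0.994, and Vcam1 with Icam2 at -0.236. Kdr and Calcrl are among the endothelial markers that named the classes. Stmn2, Efnb2 and Cxcl12 are in the marker lists used in naming the endothelial groups. The 14 groups share libraries and differ in depth, so these values describe this table.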

How the data were processed

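Cells were measured by droplet 3' RNA sequencing (10x Genomics Chromium, version 3 chemistry) after sorting, per the labels' protocols, and reads were processed with Cell Ranger 3.0.2 on mm10, per the submitters' processing notes. The deposited values are natural log values: per the values themselves, the authors scaled the UMIs of each cell to a sum of 10000 and stored ln(1 + scaled value). The sources used here do not state filters or doublet removal; every gene listed has a UMI in at least 3 cells. Whole UMIs were recovered from the deposited values (largest deviation from a whole number 1.78e-10) and used throughout; since the table is 1 sample, no count test was run and no p-value is given. No column of cells was left unused (0).

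Cells were clustered with scanpy 1.11.5 (2000 variable genes without the 10 genes and the 4 pathway lists, 20 principal components, 15 neighbours, Leiden resolution 0.5 with igraph 0.11.9), and endothelial-like cells again at 1.0. Clusters were named from 22 marker lists, and cluster 8 was left without a name: the dendritic list matched it best, but only Ccl22 of that list was among its 10 leading genes, beside macrophage genes such as Mmp12. A group of 4 endothelial-like cells led by haemoglobin and lymphocyte genes was left unnamed too. The genes, the lists and the comparisons were chosen with earlier results of these data known, so they are not independent of them. Doublets were not removed. Cells hold between 2517 and 49467 UMIs; thinned shares are expected shares after 2500 UMIs are drawn from each cell. Intervals and the floor of 3 UMIs for a count of 0 cover counting error only, at 95%, and cells differ more than Poisson counting does. Genes with a UMI in at least 1% of the cells of either compared group, and more than 3 UMIs in at least 1 group, form the background. A gene absent from 1 group therefore enters only through the other and can be called in 1 direction only. From each pathway list at most 4 genes with the largest log2 ratio, with a UMI in at least 5% of cells of either side, could be named, and for each of the 9 genes the 3 most similar genes. The GGAANTTCC letters, the Car4-high cluster of 95 cells, Slc6a2 and Ptprc, and the share of UMIs in the 44 cells were chosen after values were seen. Positions are from GENCODE mouse release 21 on GRCm38, and promoters from RefSeq on GRCm38.p6. Ratios and thinning were tested on simulated data.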

Additional observations from a re-analysis of the deposited data

How the results depend on the processing

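No paired analysis was possible because no result comes from a test: the table was treated as 1 sample, and the ratios within each of its 2 libraries are given instead. The count of genes at least 2-fold higher in endothelial-like cells, 7, was 6 in library 2 alone and 7 under the other alternatives tried, and 1 direction turned: Jam2 had a log2 ratio of -0.42 in library 2 alone, against 1.86 over all cells. Leaving out the cells with markers of several lineages and clustering the rest anew, which also changes the classes (613 endothelial-like cells, against 601), gave a log2 ratio of 10.27 for Cdh5, against 6.10 over all cells, and 10.30 for Cldn5, against 6.61. With the same cells left out and the classes kept as they were, an alternative added after seeing the data, Cdh5 was at 8.87 and Cldn5 at 8.45, and no count of called genes changed. Endothelial markers were part of the rule that picked the cells left out, which favours higher ratios. The 5 genes apart between Vwf-high and Car4-high cells were 2 in library 2 alone, 3 at a resolution of 0.67 times, 3 with 30 principal components and 2 at a 3-fold threshold. The 1 gene apart between Gpihbp1-capillary-like and Car4-high cells was 2 in library 1 alone, 0 in library 2 alone, 2 at a resolution of 1.5 times, 3 without cells with markers of several lineages (clustered anew, here and below) and 2 as a mean over cells. The 3 genes apart between Vwf-high and Gpihbp1-capillary-like cells were 1 each in library 2 alone, at a resolution of 1.5 times, without cells with markers of several lineages and at a 3-fold threshold. The 1 gene apart by Cdkn2a was 0 without cells with markers of several lineages, 0 without the top cell, 0 with a pseudocount of 0.1, 2 when matched within 10 bins of total UMIs and 0 when matched within group and 10 bins, the last added after seeing the data. At a resolution of 0.67 times and with 30 components both comparisons with Gpihbp1-capillary-like cells had no value, since that group merged with Vwf-high cells; the cause of the other changes was not tested. Few UMIs stand behind Selp (3) and Vcam1 (40) in endothelial-like cells and Jam2 in library 2 (11 in endothelial-like and 7 in the other cells).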
